A study of Mus musculus with 3 samples.

Results

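Integrins are transmembrane receptors made of one α and one β subunit that tie the extracellular matrix to the actin cytoskeleton. The α1, α2 and α11 subunits each pair with β1 to bind collagen. The α5, α8 and αv subunits form receptors for the arginine-glycine-aspartate (RGD) motif of fibronectin, vitronectin and related proteins, and in vessels they serve adhesion to the matrix and angiogenesis. Receptors of αv with β6 or β8 also release TGF-beta from its latent complex.

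Here 10 integrin genes were followed, chosen as the genes named Itga1, Itga2, Itga11, Itga5, Itga8, Itgav, Itgb1, Itgb3, Itgb5 and Itgb8 on the array. They were 10 of 19710 genes named on it and had 25 probes among its 41174. The cells came from Pim1-/- mice, which lack the serine/threonine kinase Pim1, and from wild-type mice. Both were FVB/N, labelled female and 12 weeks old, and the cells were called aortic endothelial cells. All dishes were coated with 0.1% gelatine, which is denatured collagen, and RNA was taken 24 hours after seeding. Knockout RNA carried Cy5 and wild-type RNA Cy3 on each of 3 two-colour arrays of 60-base probes, called biological replicates, with no dye swap. Neither the deleted stretch of Pim1 nor the number of mice or of wild-type cultures was given. The p-values therefore measure only the spread between 3 arrays.

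Signal well above background was found in knockout cells for 53.9% to 57.2% of probes, and in wild-type cells for 58.4% to 62.6%. Log2 ratios of arrays 2 and 3 were closer to each other (r = 0.905 across probes, which are not independent replicates) than to array 1 (r = 0.681 and 0.699). Pim1 fell by 1.04 on the log2 scale (SD over 3 arrays 0.10), or 2.05-fold, and its probe was still above background in knockout cells on all 3 arrays. Of 18 endothelial markers, 4 were detected on every array in knockout cells and 5 in wild-type cells. Pecam1, Cdh5, Tie1, Erg and Sox17 lay above background nowhere, so the endothelial name rests on the labels alone. The 18 endothelial markers had a summed intensity of 8748 to 11554 in knockout cells and 4672 to 5306 in wild-type cells. That of 12 fibroblast markers was 277204 to 326882 and 265539 to 294731. Sums of the other marker lists are given further below, and the cell composition was not tested. The Xist probe gave a log2 ratio of −7.40 with no knockout signal above background. The Y-linked genes Eif2s3y and Ddx3y were higher in knockout cells, with bounds on the mean (explained at Itga2) of 28.1-fold and 12.1-fold. Sex and genotype therefore cannot be told apart in any result that follows, and with no dye swap neither can dye and genotype.

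The probes of the genes on which the results turn are given first, since several of these genes gave values that depended on the probe. Each is the strand of the mRNA (not checked for Itgb3), 5′ to 3′, at its position in the mouse build mm8 of the array files. The first 30 bases are given, or all 60 where the probe was recognised as coding sequence. Capitals mark the codons for the membrane-proximal motif of integrin α tails (glycine, 2 phenylalanines, lysine, arginine), which 1 of the 25 probes held. Exon or untranslated location was not annotated in the files.
Itga11, chr9:62581866-62581925, plus strand: gtttcatctgaacaatgtcatctgttcccc
Itga2, cytoplasmic tail, chr13:115957384-115957443, minus strand: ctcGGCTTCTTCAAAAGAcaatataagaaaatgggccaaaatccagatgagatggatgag
Itga2, upstream of the tail, chr13:115998576-115998635, minus strand: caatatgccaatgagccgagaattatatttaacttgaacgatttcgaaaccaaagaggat
Itgb8, chr12:119632348-119632407, minus strand: ttccatttatttagaggaatgaccctaaca
Itgb3, full-length RNA record, chr11:104483266-104483336, plus strand: tgggactctctgccattatgtttacagagg
Itgb3, clone, chr11:104486448-104486507, plus strand: ccacagcaacatcagagtctttgtccattt
Itgb1, printed at 10 spots, chr8:131618682-131618741, plus strand: aaataaaattgacacagttgatgttcaagt
Itgb1, single spot, chr8:131608539-131608598, plus strand: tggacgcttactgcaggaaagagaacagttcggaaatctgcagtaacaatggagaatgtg

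All probes of the 9 genes with a listed promoter had the strand of their gene, and the strand of the Itgb3 probes was not checked. Of the 25 probes, 5 spanned more than 60 bases of genome, up to 5019, so their sequence is interrupted there. Each gene took the value of its brightest tested probe, and testing required a signal well above background in either channel on 2 or more arrays. By that filter 16 probes of 9 genes were tested and Itga8 was not. Mean log2 ratios of the knockout over the wild type were tested against 0 with limma, adjusted over all tested probes, with a threshold of 0.05. Of the 9 genes, 1 rose (Itga11) and 3 fell (Itga2, Itgb3 and Itgb8), where 20.1% of all 13460 tested genes were called (8.68% higher, 11.4% lower), and 17.1% of all tested probes. Among all called genes 43.1% were higher in the knockout, and 55.6% with median centring in place of loess. Only Itga11 kept its call under every alternative tried. The share of all tested genes called was 41.6% without array 1, 4.97% without array 2, 4.7% without array 3 and 33.6% with array weights. A pass or a loss in those fits is to be read beside these shares. Each fit without an array rests on 2 arrays. Its p-values lean on the variance that limma pools over probes and measure little of a gene's own spread.

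**Figure D1:**
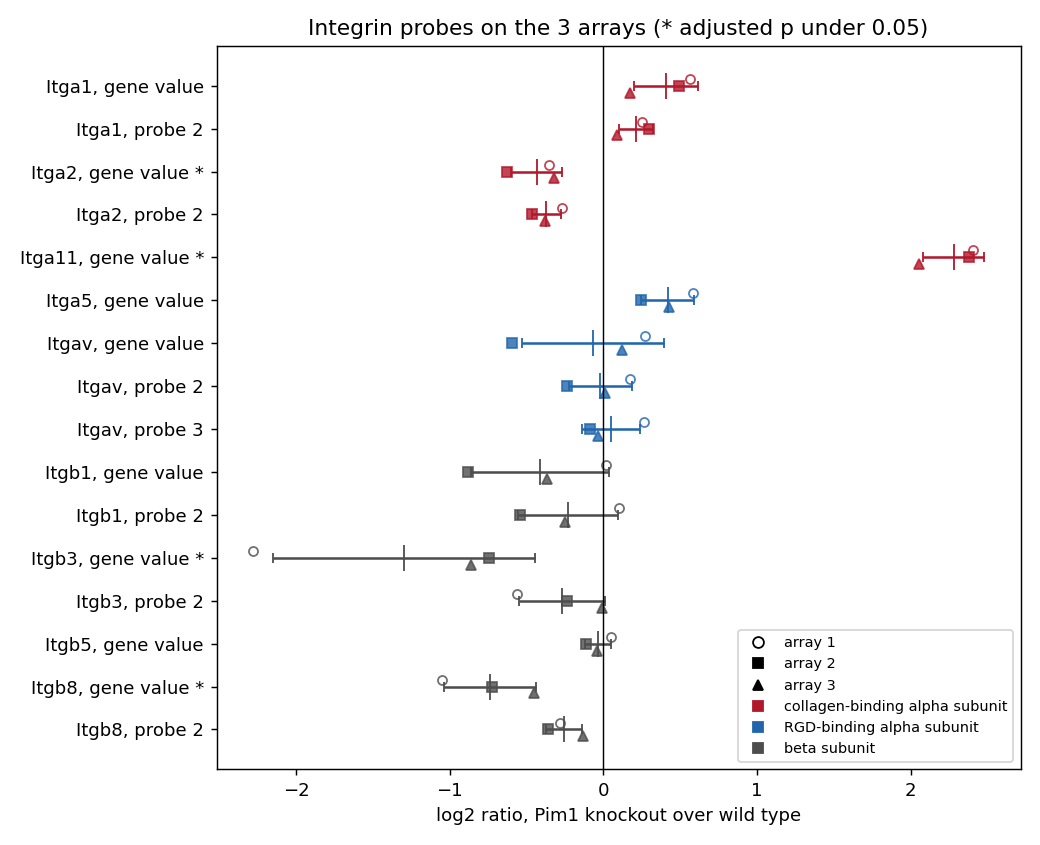
Log2 ratio of the Pim1 knockout over the wild type for the 16 tested integrin probes, 1 symbol shape per array, with the mean as a vertical tick and the SD over 3 arrays as a bar. An asterisk marks an adjusted p under 0.05. Itga11 stands at 2.28, and the ratios of Itgav and Itgb1 lie on both sides of 0.

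Itga11 encodes the α11 subunit, a receptor for fibrillar collagen known from fibroblasts and other mesenchymal cells. It had log2 intensities of 9.89, 9.58 and 9.69 in knockout cells, against 7.48, 7.20 and 7.64 in wild-type cells. Every knockout value lay above every wild-type value, and both channels were above background on all 3 arrays. The log2 ratios were 2.41, 2.38 and 2.05, a mean of 2.28 ± 0.20 (SD, n = 3 arrays, 95% interval 2.00 to 2.56, limma adjusted p = 0.000466), or 4.86-fold. Without array 1, 2 or 3 the mean was 2.22, 2.23 or 2.39 and passed each time. Of 12 fibroblast markers tested, 9 rose and 1 fell (Col1a2), with a median log2 ratio of 1.77 against −0.02 over all tested genes. Decorin (Dcn) rose by 2.70 and Pdgfra by 2.26 on the log2 scale. The summed intensity of the 12 markers was 277204 to 326882 in knockout cells, against 265539 to 294731 in wild-type cells, and no marker of that list was below background everywhere. That sum is carried mostly by Col1a1, Col1a2 and Fbln2. Their mean log2 intensities were 16.41, 16.26 and 15.94 in knockout cells, against 15.80, 16.96 and 16.29 in wild-type cells. The part of the fibroblast markers in the Itga11 result was not tested, and in bulk RNA fewer cells of a type and less RNA per cell cannot be told apart.

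Itga1 encodes α1, which prefers the collagen of basement membranes. Its brighter probe, at chr13:116087435-116089089, read 7.16, 6.91 and 6.66 in knockout cells, against 6.60, 6.42 and 6.49 in wild-type cells. The groups did not overlap. The mean log2 ratio was 0.41 ± 0.21 (SD, n = 3 arrays, 95% interval 0.12 to 0.70) and missed the threshold (limma adjusted p = 0.0674). It passed at 1.28 in the scanner software's own ratio (adjusted p = 0.00617), without background subtraction, with an offset of 0, with an intensity trend, and without array 1. A second probe gave 0.21 ± 0.11 (adjusted p = 0.203), with a knockout signal above background on 2 arrays and a wild-type signal above it on none. The third was above background nowhere.

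Itga2 encodes α2, the collagen receptor subunit also known from platelets and epithelia. The tail probe read 6.27, 6.37 and 6.43 in knockout cells, against 6.62, 7.00 and 6.75 in wild-type cells. It was above background on no array in the knockout channel and on all 3 in the wild-type channel. By this probe Itga2 was 1.35-fold lower in the knockout (log2 ratios −0.35, −0.62 and −0.32). The mean was −0.43 ± 0.17 (SD, n = 3 arrays, 95% interval −0.70 to −0.16, limma adjusted p = 0.0489). A bound on the mean sets an undetected channel at the higher of the lowest signal above background and the probe's own. Both have the offset of 50 in them. For Itga2 the bound equalled the mean fold, 1.35, so it is no minimum over the arrays. Like every ratio here, such bounds are open to dye bias. The second probe, above background on 1 array in the knockout channel, gave −0.37 ± 0.10, or 1.29-fold, and just missed the threshold (adjusted p = 0.0546). The call was lost without array 2 (−0.34) or array 3 (−0.49), with median centring, and with no filter on dim probes (adjusted p = 0.0529).

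**Figure D2:**
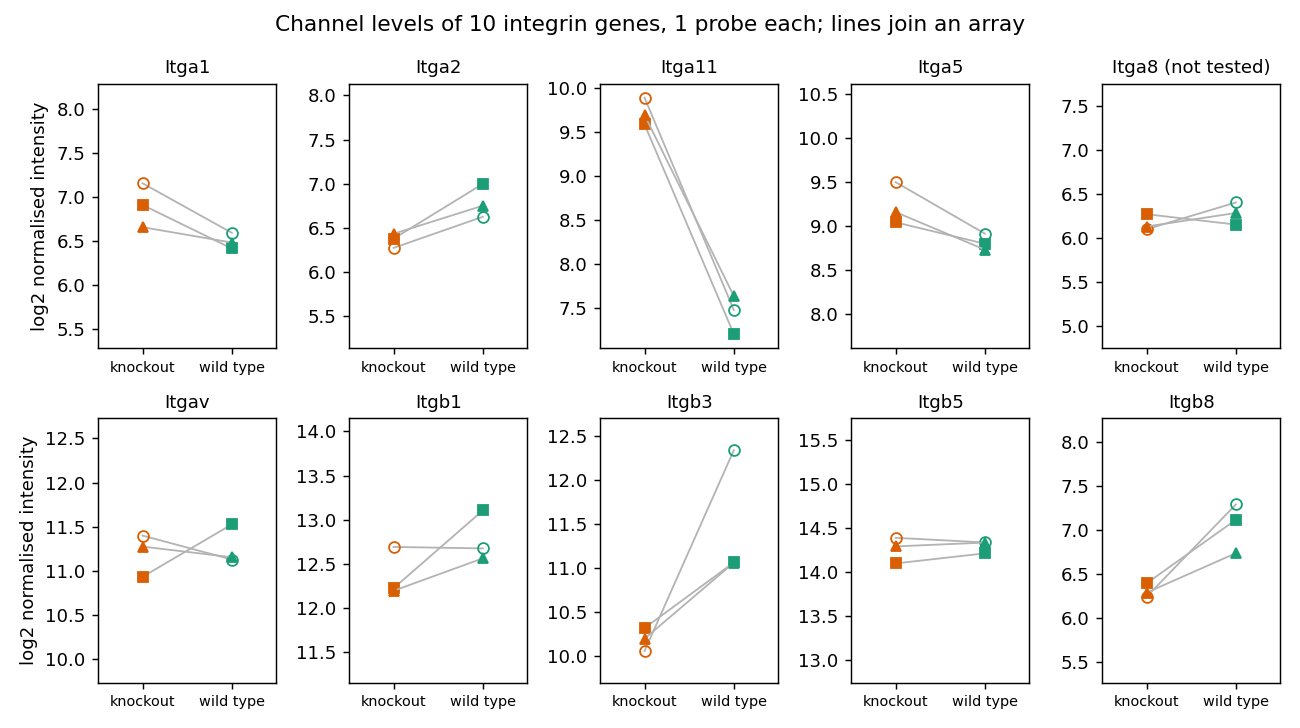
Log2 normalised intensity of 1 probe for each of the 10 integrin genes, with knockout cells on the left and wild-type cells on the right of each panel and a line joining the channels of an array. The vertical axes differ in position, so levels are to be read within a panel only. Itga11 is higher in knockout cells on every array, and Itgb3 on array 1 (open circles) has its wild-type channel at 12.34, above the other arrays.

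Of the 2 RGD-binding α subunits tested with limma, 0 were called, where 20.1% of all tested genes were. Itga5 encodes α5, the α chain of the main fibronectin receptor. Its probe, at chr15:103172625-103172684, read 9.50, 9.04 and 9.16 in knockout cells, against 8.91, 8.80 and 8.73 in wild-type cells. The groups did not overlap, and all 3 ratios were positive. The mean was 0.42 ± 0.17 (SD, n = 3 arrays, 95% interval 0.15 to 0.69) and missed the threshold (limma adjusted p = 0.0542). It passed with array weights (0.38, adjusted p = 0.0222) and without array 1 (0.33, adjusted p = 0.0228), where 33.6% and 41.6% of all tested genes were called.

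Itgav encodes αv, the shared partner of β3, β5, β6 and β8. Its brightest probe, at chr2:83606815-83606874, read 11.40, 10.93 and 11.27 in knockout cells, against 11.13, 11.53 and 11.15 in wild-type cells. The groups overlapped, and array 2 alone had a negative ratio (0.27, −0.60 and 0.12). The mean was −0.07 ± 0.46 (SD, n = 3 arrays, 95% interval −0.53 to 0.40, limma adjusted p = 0.849). Its sign turned with median centring (0.08) and without array 2 (0.20). The other tested probes gave −0.02 ± 0.21 and 0.05 ± 0.19, and array 2 was the lowest in each. A further 3 probes, drawn from clones within the gene, were above background nowhere. Itga8 encodes α8, a receptor for fibronectin and nephronectin, known from smooth muscle. None of its 3 probes was above background in either channel on any array, so it has no ratio here.

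The β subunits were measured at 4 genes. Itgb1 encodes β1, the partner of every collagen-binding α subunit and of α5, α8 and αv. Its probe with 10 spots read 12.69, 12.22 and 12.19 in knockout cells, against 12.67, 13.10 and 12.56 in wild-type cells. The ratios were 0.02, −0.88 and −0.37, and the groups overlapped. The mean was −0.41 ± 0.45 (SD, n = 3 arrays, 95% interval −0.87 to 0.04, limma adjusted p = 0.189). Repeated spots separate the error within an array from that between arrays. The SD between spots was 0.0344, 0.0415 and 0.0355 on the 3 arrays, over 9, 10 and 6 spots that were free of outlier marks. Spots ranged over −0.03 to 0.06 on array 1, −0.95 to −0.82 on array 2 and −0.42 to −0.33 on array 3, so no range met another.

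**Figure D3:**
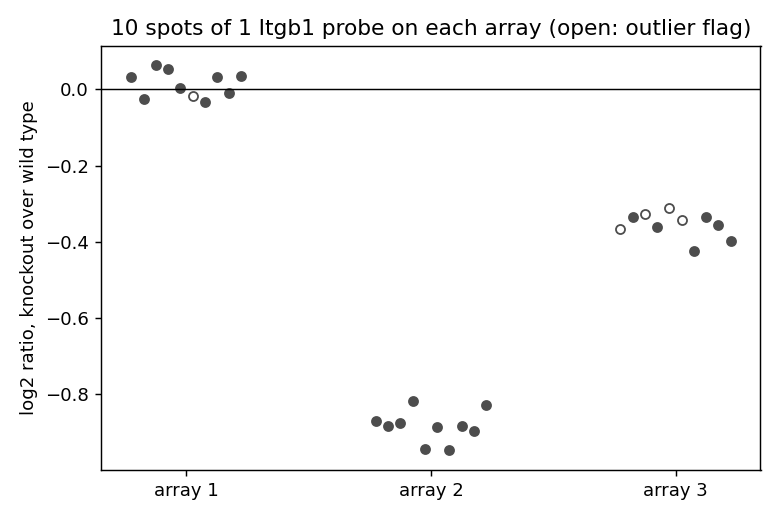
Log2 ratio of the knockout over the wild type at each of the 10 spots of 1 Itgb1 probe, by array. Filled points were used and open points carried an outlier mark. The spots of an array lie close together (SD 0.0344 to 0.0415) and the 3 arrays lie apart.

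The single-spot Itgb1 probe gave the same order of arrays (0.11, −0.54 and −0.25, mean −0.23 ± 0.32, limma adjusted p = 0.345). The gene passed without array 1 (−0.63, adjusted p = 0.000165) and with array weights (−0.50, adjusted p = 0.0382). Those fits called 41.6% and 33.6% of all tested genes, against 20.1% in the main fit. A probe for the muscle splice form β1D was above background nowhere.

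Itgb3 encodes β3, which with αv binds vitronectin and fibronectin and with αIIb forms the platelet fibrinogen receptor. Its brighter probe came from a clone and lay 3111 bases beyond the other along the plus strand of the build. It read 10.06, 10.32 and 10.20 in knockout cells, against 12.34, 11.06 and 11.06 in wild-type cells. The groups did not overlap, and array 1 had the highest wild-type value. Itgb3 fell by a mean of 1.29 on the log2 scale (ratios −2.28, −0.74 and −0.86, SD 0.85 over 3 arrays, limma adjusted p = 0.0453), or 2.45-fold. The probe of the full-length RNA record gave −0.56, −0.24 and −0.01, and its mean of −0.27 ± 0.28 missed the threshold (adjusted p = 0.232). The direction was shared, but the mean of both probes (−0.78) missed it too (adjusted p = 0.0655). Without array 1 the clone probe gave −0.80 and passed (adjusted p = 1.48e-06), in a fit that called 41.6% of all tested genes. Without array 2 or 3 it did not (−1.57 and −1.51), nor with no filter on dim probes (adjusted p = 0.0999).

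Itgb5 encodes β5, which with αv forms a vitronectin receptor. Its probe, at chr16:33868784-33868843, read 14.39, 14.10 and 14.29 in knockout cells, against 14.34, 14.21 and 14.34 in wild-type cells. The groups overlapped, and the mean log2 ratio was −0.04 ± 0.08 (SD, n = 3 arrays, limma adjusted p = 0.846). The 95% interval ran from −0.27 to 0.20. The sign turned with median centring (0.24).

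Itgb8 encodes β8, which with αv holds latent TGF-beta for release. Its brightest probe read 6.24, 6.40 and 6.29 in knockout cells, against 7.29, 7.12 and 6.74 in wild-type cells. The groups did not overlap, and the probe was above background on 1 array in the knockout channel and on all 3 in the wild-type channel. Itgb8 fell by 0.74 on the log2 scale (ratios −1.05, −0.72 and −0.45, SD 0.30, n = 3 arrays, limma adjusted p = 0.023), or 1.67-fold. Without array 2 or 3 the mean was −0.75 or −0.88 and did not pass. The second tested probe gave −0.26 ± 0.12 and missed the threshold (adjusted p = 0.142), with the knockout channel above background on no array. The third was above background nowhere.

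The size of the ratio at dim probes changed with the background correction. Itgb8 stood at −0.74 with normexp and an offset of 50, −0.98 without subtraction and −1.46 with an offset of 0. The scanner software's ratio has no offset and also skips the loess step used here. In it Itgb8 stood at −2.62, and the second Itgb8 probe, with no knockout array above background, passed at −2.15 (limma adjusted p = 0.000885). Itga2 stood at −1.76 and its second probe at −1.66 (adjusted p = 0.026). Itga11 stood at 2.96, against 2.28, and Itgb3 at −1.33, against −1.29. The direction of Itga1, Itga2, Itgb8, Itga11 and Itgb3 was the same under all 4 of these settings. The software's ratio read exactly 0 on some arrays at probes that were above background nowhere, such as the third Itgb8 probe.

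**Figure D4:**
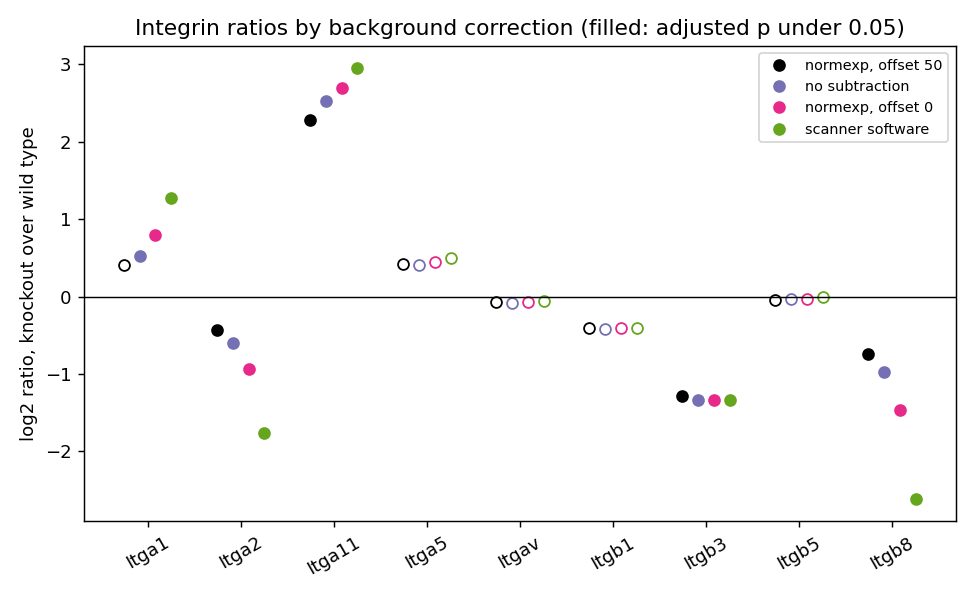
Mean log2 ratio of the knockout over the wild type for the 9 tested integrin genes under 4 settings, with filled points where the adjusted p was under 0.05. The settings are background corrections and the scanner software's ratio, which also skips the loess step. Itga1, Itga2 and Itgb8 spread widely between settings, and Itgb1, Itgb3, Itgb5 and Itgav moved by less than 0.1.

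Promoters were read for the member that rose under every alternative and for the fallen member with the smallest adjusted p among those that have one in the table. Itga11 and Itgb8 are shown over 250 bases before the transcription start, from RefSeq on GRCm38.p6, with capitals on the E-box (CANNTG), a site type bound by basic helix-loop-helix factors. A promoter was listed for 9 of the 10 genes, and Itgb3 is named only.
Itga11, chr9:62677605-62677854, plus strand: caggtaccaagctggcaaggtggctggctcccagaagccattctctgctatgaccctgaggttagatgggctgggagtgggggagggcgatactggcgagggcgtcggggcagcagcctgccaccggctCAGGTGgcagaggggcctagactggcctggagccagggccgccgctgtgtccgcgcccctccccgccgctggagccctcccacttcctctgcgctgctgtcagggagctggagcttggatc
Itgb8, chr12:119238277-119238526, minus strand: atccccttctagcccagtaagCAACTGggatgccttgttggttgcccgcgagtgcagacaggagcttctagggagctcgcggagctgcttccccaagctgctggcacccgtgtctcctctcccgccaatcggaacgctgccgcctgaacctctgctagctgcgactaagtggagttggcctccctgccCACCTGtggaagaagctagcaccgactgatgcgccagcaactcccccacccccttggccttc

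The Itga11 window held 1 E-box and the Itgb8 window 2. An E-box stood in 6 of the 9 integrin windows and in 66.2% of all 32851 windows of this length. The GC box (GGGCGG on either strand), bound by Sp factors, stood in 3 of 9 (Itga5, Itgb1 and Itgb5), against 32.7% of all. The Itga11 and Itgb8 windows held none. These matches describe letters in a window.

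Lists of genes around the 10 integrins held 59 calls with all arrays, 90 without array 1, 25 without array 2 and 22 without array 3. The share of all tested genes called in those fits was 20.1%, 41.6%, 4.97% and 4.7%. The first list is the other integrin subunits. Of 12 tested, 1 rose and 6 fell (median log2 ratio −0.42), where 20.1% of all tested genes were called and their median was −0.02. Itgb4, the β4 chain of the laminin receptor of hemidesmosomes, fell by 3.51 ± 0.36 on the log2 scale (SD over 3 arrays, limma adjusted p = 0.000361), or 11.4-fold. Its partner Itga6 fell by 1.62 ± 0.50 and the laminin-binding Itga3 fell by 1.41 ± 0.07. Itgb7, known from leukocytes, fell by 1.05 ± 0.32. Itga2b, the αIIb partner of β3, rose by 0.80 ± 0.48 (adjusted p = 0.0441). The calls on Itgb7 and Itga2b were lost without array 2 or array 3, and that on Itga6 without array 3. The Itga2b call was also lost with no filter on dim probes (adjusted p = 0.087), and its log2 ratio was 1.24 in the software's ratio. Itga10, the remaining collagen-binding α subunit, gave −0.29 (adjusted p = 0.152), and Itgb6, the epithelial partner of αv, gave −0.37 (adjusted p = 0.0714). Both were above background on no array in the knockout channel. Of 9 mesothelial and epithelial markers tested, 7 fell (median −1.45), and Epcam was above background nowhere. Their summed intensity was 6906 to 7362 in knockout cells, against 72619 to 94810 in wild-type cells. Their part in the laminin receptor values was not tested. Of 7 platelet markers, Gp1ba, Gp9, Pf4, Ppbp and Gp6 were above background nowhere in either channel. Itga2b is itself on that list, whose summed intensity was 824 to 929 in knockout cells, against 656 to 737 in wild-type cells.

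Of 14 genes for collagen chains tested, 3 rose and 4 fell (median 0.00). Col3a1, the chain of type III collagen, rose by 3.09 ± 1.32 on the log2 scale (1.58, 3.74 and 3.96 on the 3 arrays, limma adjusted p = 0.013). By their brightest probes Col6a3, a chain of microfibrillar collagen VI, fell by 6.07 ± 0.31, or 67.4-fold, and Col11a1 fell by 4.10 ± 0.10. Col6a1 and Col6a2, further chains of collagen VI, gave 0.00 ± 0.44 and 0.24 ± 0.38 and were not called (limma adjusted p = 0.999 and 0.364). Col5a1, a chain of type V collagen, rose by 0.71 ± 0.27 (adjusted p = 0.0223). The chains of type I collagen went opposite ways, with a log2 ratio of 0.62 ± 0.25 for Col1a1 (adjusted p = 0.0288) and −0.70 ± 0.15 for Col1a2 (adjusted p = 0.0125). Col4a1, of the basement membrane, gave −0.68 ± 0.49 and missed the threshold (adjusted p = 0.0699). The calls on Col3a1, Col5a1, Col1a1 and Col1a2 were each lost without array 2 or array 3, that on Col1a1 also in the software's ratio (0.57, adjusted p = 0.0883) and that on Col1a2 with median centring (−0.29). Median centring gave 0.99 for Col1a1. With the mean of a gene's probes the log2 ratios were −3.47 for Col6a3, −2.43 for Col11a1 and 0.44 for Col5a1. Col1a1, Col1a2 and Col3a1 also stand in the fibroblast list.

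Of 18 ligands of the RGD-binding integrins tested, 2 rose and 4 fell (median −0.35). Thbs2, an antiangiogenic matrix protein, rose by 3.06 ± 0.28 on the log2 scale, or 8.36-fold (limma adjusted p = 0.000346). Fn1, fibronectin itself, rose by 0.52 ± 0.26 (0.33, 0.41 and 0.82 on the 3 arrays, adjusted p = 0.0484). Igfbp2 fell by 2.63 ± 0.20 and Tgfbi fell by 2.44 ± 1.00. Npnt, nephronectin, the ligand of the undetected α8, fell by 1.98 ± 0.36 (adjusted p = 0.00169). Spp1, osteopontin, gave −0.34 ± 0.63 (adjusted p = 0.394). Vtn, vitronectin, was above background in neither channel. The calls on Fn1 and Tgfbi were lost without array 2 or array 3, and that on Fn1 (0.81 with median centring) also in the software's ratio, with an offset of 0, with scaling between arrays and with no filter.

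The genes of latent TGF-beta and its receptors were read beside Itgb8 and Itgav. Of 15 tested, 4 rose and 5 fell (median −0.20). The ligand genes Tgfb2 and Tgfb3 fell, with log2 ratios of −2.56 ± 0.04 and −2.03 ± 0.52 (limma adjusted p = 0.000265 and 0.00355). Tgfb1 gave −0.34 ± 0.10 and missed the threshold (adjusted p = 0.0698). Eng, a co-receptor, rose by 2.51 ± 0.24, and Ltbp2, a matrix protein of the latent TGF-beta binding family, rose by 1.39 ± 0.34, a call that was lost without array 3. Eng is also on the endothelial list.

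Proteins that bind integrin tails and switch receptors on or off were tested at 25 genes, of which 4 rose and 4 fell (median −0.09). Apbb1ip, which encodes the Rap1 effector RIAM that recruits talin, rose by 2.22 ± 0.26 on the log2 scale (limma adjusted p = 0.00068). Tln1 and Tln2, the talins, rose by 0.48 ± 0.05 and 0.65 ± 0.04 (adjusted p = 0.0246 and 0.0102). The tensins Tns1 and Tns3 fell, with log2 ratios of −1.44 ± 0.17 and −0.87 ± 0.33. Fermt2, kindlin-2, gave −0.09 ± 0.13 (adjusted p = 0.587). The calls on Tln1, Tln2 and Tns3 were lost without array 2 or array 3, that on Tln1 also in the software's ratio and that on Tns3 with median centring. With the mean of their probes Tns1 and Tns3 stood at −0.82 and −0.41. Of 23 genes of proximal adhesion signalling, 1 rose and 6 fell (median −0.12). Zyx, the adhesion protein zyxin, rose 2.82-fold. Parvb and Lims2, which encode partners of integrin-linked kinase, fell, with log2 ratios of −2.08 ± 0.18 and −1.66 ± 0.15, and so did Nedd9, a docking protein, with −1.31 ± 0.32. Parvb was above background on 2 arrays in knockout cells, and its log2 ratio was −4.03 in the software's ratio and −1.23 as the mean of its probes.

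**Figure D5:**
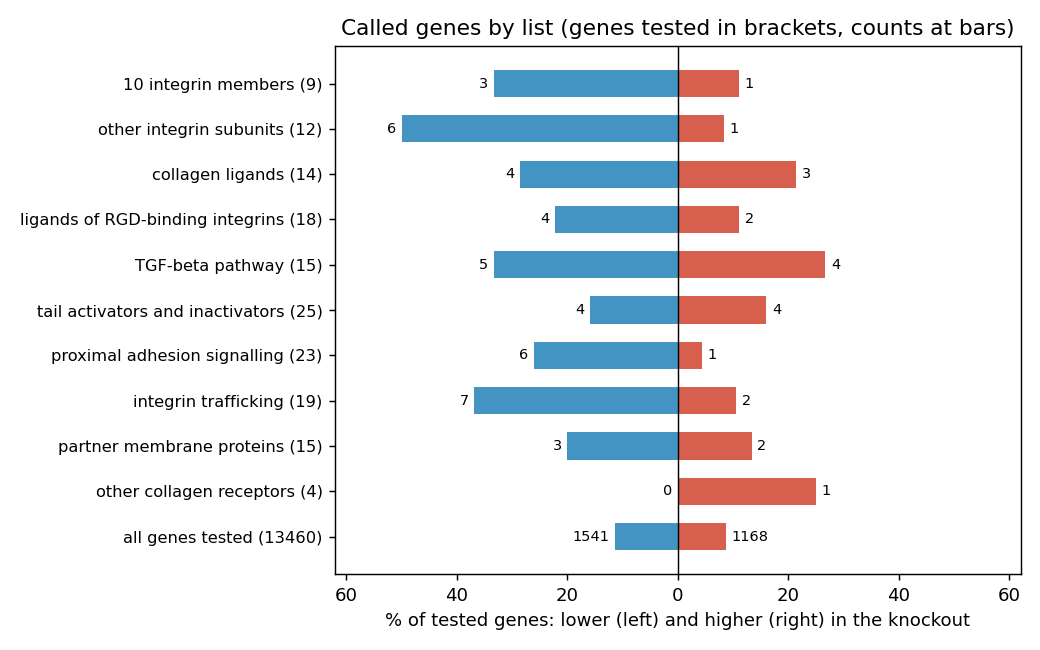
Share of tested genes called lower (left) and higher (right) in the knockout at an adjusted p under 0.05, for the 10 integrin genes, the lists around them and all tested genes, with the genes tested in brackets and the counts at the bars. The other integrin subunits have 6 lower and 1 higher of 12, and all tested genes have 1541 lower and 1168 higher of 13460.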

How the data were processed

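The deposited files held pixel intensity and local background intensity of both channels at 45018 spots per array, and the software's log10 ratio of knockout (Cy5) over wild type (Cy3). They are output of the scanner software (Agilent Feature Extraction, version 9.5.3.1 by the submitters' processing notes), per the file headers. In the value table the authors had deposited that same log10 ratio (largest difference 0). All arrays shared 1 slide and 1 scan time.

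Mean intensities were background-corrected (normexp, offset 50) and log2 ratios were loess-normalised within arrays, with the 1639 control spots and outlier-marked spots (121, 140 and 136) at weight 0. Spots of a probe were averaged. The mean ratio was set against 0 in limma (version 3.58.1, R 4.3.3), adjusted by Benjamini-Hochberg over 25080 tested probes, of which 17.1% were called. An offset of this kind shrinks the ratios of dim probes. No spot was saturated. Channel levels are log2 values after loess and Aquantile. The share of all tested genes whose knockout and wild-type levels did not overlap was not counted. Errors are SDs over 3 arrays. Probes were named through RefSeq tables of GRCm38.p6 (24375 by accession, 121 by another accession, 6234 by symbol, 2386 by synonym, 8058 unnamed), and 253 antisense probes were left out.

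The pipeline was tested on simulated data. The integrin genes and the lists around them were chosen with earlier results of these data known. The genes named were all 10 integrins, up to 4 called genes per list by size, and 15 genes of the pathway named whatever their value. Itga2b, Col1a2, Col6a1, Col6a2, Dcn and Pdgfra were named after their values were seen. Alternatives varied the background correction, normalisation, filter, variance model, array weights, block, probe summary and arrays used. Of the marker lists, 1 gene was left out and is not reported here.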

Additional observations from a re-analysis of the deposited data

How the results depend on the processing

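Of the 9 tested integrin genes, Itga11 alone was called under every alternative. The count of 4 called genes (20.1% of all tested genes called) was 5 without background subtraction, with an offset of 0 and in the scanner software's ratio. It was also 5 in the deposited value table and with an intensity trend. Those 5 fits called 18.7% to 22% of all tested genes. With array weights it was 6 (33.6%). It was 3 with median centring (13.9%) or probe averaging (18.7%). It was 2 with no filter on dim probes (Itga11 and Itgb8, 12.6% of 19709 genes). It was also 2 with a filter on both channels (Itga11 and Itgb3, 19.5% of 11969 genes). That last filter tested only 7 of the integrins and left out Itga2 and Itgb8. Leaving out an array gave 1 to 7 called integrins, 633 to 5599 called genes in all (4.7% to 41.6% of those tested) and 22 to 90 in the lists around them (59 with all arrays). Array weights (0.403, 1.22 and 2.04) gave 4519 called genes against 2709, and median centring 1866. Itga1 passed at 0.52 without background subtraction, 0.79 with an offset of 0, 1.28 in the software's ratio and value table, and 0.41 with an intensity trend. Itga2 did not pass with median centring (−0.45) or no filter (−0.43), nor Itgb3 with no filter (−1.29) or the mean of probes (−0.78). Itga5 (0.38) and Itgb1 (−0.50) passed with array weights. Itgav and Itgb5 turned sign with median centring (0.08 and 0.24), which moved the median of all genes to 0.08, against −0.02. With 1 array left out in turn, the log2 ratio ran over 0.33 to 0.53 for Itga1, −0.49 to −0.34 for Itga2, 0.33 to 0.51 for Itga5, −0.24 to 0.20 for Itgav, −0.63 to −0.18 for Itgb1, −1.57 to −0.80 for Itgb3, −0.08 to 0.00 for Itgb5 and −0.88 to −0.58 for Itgb8. With 6 separate channel values and no replicate block, in which an array no longer paired its channels, the same 4 integrins and 2890 genes were called. Causes of these changes were not tested. Signal over background limits Itga1, Itga2 and Itgb8, whose knockout or wild-type channel lay near the floor, and Itga8, which was not tested.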

Other observations

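Genes that carry integrins between the surface and the endosomes were tested at 19 genes, of which 2 rose and 7 fell (median log2 ratio −0.32). Rab25, a small GTPase that recycles α5β1 in epithelial cells, fell by 2.46 ± 0.11 on the log2 scale (SD over 3 arrays, limma adjusted p = 0.000322). Cav1, the main caveolar coat protein, fell by 0.99 ± 0.17 (adjusted p = 0.00458), and Cyth2, which activates Arf GTPases, fell by 0.67 ± 0.24. Dab2, a clathrin adaptor that takes integrins in, rose by 1.00 ± 0.12 (adjusted p = 0.00356). The calls on Cav1 and Cyth2 were lost without array 2 and with median centring, and those on Cyth2 and Dab2 without array 3. Across all tested genes 20.1% were called and the median was −0.02.

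Of 15 membrane proteins that partner integrins, 2 rose and 3 fell (median 0.02). Sdc4, a co-receptor for fibronectin, rose by 1.10 ± 0.12 (log2, n = 3 arrays, limma adjusted p = 0.00259), whereas Tspan2 and Cd9, both tetraspanins, fell, with log2 ratios of −2.39 ± 0.40 and −0.90 ± 0.10. Mcam, an adhesion molecule of vascular and other cells, fell by 1.77 ± 0.17 (−1.17 as the mean of its probes). Of the 4 collagen receptors tested that are not integrins, Mrc2, which takes up collagen for breakdown, rose by 0.79 ± 0.12 (adjusted p = 0.00725). With median centring Cd9 stood at −0.59. The calls on Cd9 and Mrc2 were lost without array 3, and that on Mrc2 also without array 2. The smooth muscle markers, of which 2 rose and 3 fell among 9 tested, had a summed intensity of 56716 to 59768 in knockout cells, against 54747 to 67363 in wild-type cells. The macrophage and leukocyte markers, of which 2 fell among 7 tested, had 2671 to 3096 in knockout cells, against 4004 to 5307 in wild-type cells. The endothelial markers, of which 2 rose among 6 tested of 18, had 8748 to 11554 in knockout cells, against 4672 to 5306 in wild-type cells. That sum is carried mostly by Eng, Egfl7 and Flt1, with log2 ratios of 2.51, 1.42 and 0.27, the last not called. The other tested markers Nos3, Esam and Kdr gave 0.18, −0.17 and −0.23 and were not called.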
